A study of Rattus norvegicus with 30 samples.

Results

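The 34 probe sets described here measured 32 cytochrome P450 genes of families 1 to 3 in primary rat hepatocytes treated with WY-14643. They were every probe set of an Affymetrix rat expression array whose platform annotation gave a single gene symbol beginning with Cyp1, Cyp2 or Cyp3 and then a letter, out of 31042 probe sets that are no control. Family 1 had 3 of them, family 2 had 27 and family 3 had 4, and the genes Cyp2d4 and Cyp2j3 each had 2 probe sets. The cells were bought frozen hepatocytes of male Sprague Dawley rats, kept on collagen under Matrigel and dosed on day 3 of culture. The groups were 8 µM WY-14643 at 24 h, 200 µM at 24 h, 8 µM at 48 h, 200 µM at 48 h, and vehicle wells, labelled 1% DMSO, at 24 h and at 48 h. Each group held 5 arrays, each from its own culture well, 30 in all. Wells and arrays of a group are numbered here in the order of the array numbers in the sample titles. The labels call the wells biological replicates and do not say whether their cells came from different animals, so the p-values measure the spread between wells. The labels name DMSO in the dosing solutions of all doses without a final content for the treated medium.

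Cytochromes P450 of these families are haem enzymes of the endoplasmic reticulum that oxidise drugs, pollutants, steroids and fatty acids, with electrons from the reductase Por. Their genes are the classical examples of induction by foreign compounds in liver: the aryl hydrocarbon receptor (Ahr) drives family 1, the constitutive androstane receptor (Nr1i3) drives the 2B genes and the pregnane X receptor (Nr1i2) drives the 3A genes. Several 2A, 2C and 3A genes of the rat are also sex-specific, under the pattern of growth hormone. WY-14643 is a peroxisome proliferator that activates another receptor of this kind, PPARα.

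Values are MAS5 signals on the authors' linear scale, and fold changes are differences of mean log2(signal + 16) with their standard errors. Signals of different probe sets are not compared as amounts of RNA, and a sum over several probe sets follows the brightest of them most. Many of these genes are close copies of each other, and how far a probe set also binds transcripts of relatives was not tested. A member "rose" or "fell" where its Benjamini-Hochberg adjusted p in limma, over all 31042 probe sets, was under 0.05. No probe set was left out for low signal, so all 34 members were tested. Of them, 33 reached a signal of 281 (the 40th percentile of all values) on at least 5 arrays, 29 did so on all 30, and Cyp2b12 did so on none. Array 4 of the 48 h vehicle group stood apart, with a median signal of 764 against 383 to 439 on the other 29 arrays, and counts at 48 h are given with and without it. The signal of β-actin's 3′ probes over its 5′ probes, a sign of RNA length, averaged 3.26 ± 0.417 in 8 µM wells and 3.10 ± 0.201 in 200 µM wells at 48 h, against 2.61 ± 0.313 in vehicle wells (SD, n = 5 each; lowest adjusted p = 0.0762 over 8 exact permutation tests, two-sided). At 24 h it averaged 3.10 ± 0.214 in 8 µM wells and 3.31 ± 0.169 in 200 µM wells, against 2.86 ± 0.278 in vehicle wells. For this β-actin ratio, the unadjusted exact permutation p was 0.0238 (8 µM) and 0.0317 (200 µM) at 48 h. At 24 h it was 0.1825 and 0.0238. The same ratio for Gapdh averaged lower in treated wells, at 1.14 ± 0.0406 (8 µM) and 1.16 ± 0.0185 (200 µM), against 1.19 ± 0.0211 in vehicle wells, at 24 h, and at 1.15 ± 0.0281 and 1.15 ± 0.0083, against 1.18 ± 0.0434, at 48 h (SD, n = 5 each; unadjusted exact permutation p = 0.0476 and 0.0397 at 24 h, lowest adjusted p = 0.0762 over the same 8 tests). The part of these ratios in the results was not tested.

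Of 7 measured hepatocyte markers, Alb, Apoa1 and Ttr passed the test in no treated comparison. Tat, a liver enzyme of tyrosine breakdown, fell in all 4 (-1.54 with 8 µM and -0.76 with 200 µM at 24 h, -1.46 and -0.86 at 48 h). Fgb, a fibrinogen chain, fell with 8 µM at 24 h and with both doses at 48 h (-0.30, -1.12 and -0.55), Serpina1 fell with both doses at 48 h, and Apob rose with 8 µM at 48 h. The summed signal of the 7 ran at 24 h from 371668 to 411222 (8 µM) and from 372094 to 422435 (200 µM), against 401753 to 474454 in vehicle wells. At 48 h it ran from 318045 to 369870 (8 µM) and from 306162 to 350466 (200 µM), against 299914 to 442926 in vehicle wells. The summed signal of 7 measured Kupffer cell markers ran at 24 h from 17884 to 20859.5 (8 µM) and from 18313 to 20170 (200 µM), against 21216 to 23993 in vehicle wells, and at 48 h from 12421 to 14711 (8 µM) and from 12613 to 13967 (200 µM), against 13716 to 17727 in vehicle wells. None of the 7 passed at 24 h (limma), where at an unadjusted p under 0.05 1 was lower with 8 µM and 3 with 200 µM, and at 48 h 1 rose and 1 fell at 8 µM and 2 fell at 200 µM. Of 8 stellate cell markers, Lrat and Pdgfrb, which define these cells, exceeded a signal of 281 on fewer than 5 arrays. Acta2 fell in all 4 treated comparisons, and Des fell with 8 µM and Col1a1 with 200 µM at 48 h. The sum of the 8 ran at 24 h from 3070 to 3977 (8 µM) and from 3058 to 3464 (200 µM), against 3979 to 4366 in vehicle wells. At 48 h it ran from 3720 to 4205 and from 3066 to 3756, against 4210 to 7248. Of 4 measured bile duct markers, 1 fell in each treated comparison, Epcam with 200 µM at 24 h and Krt19 in the other 3. Krt7 and Spp1 exceeded a signal of 281 on fewer than 5 arrays. The sum of the 4 ran at 24 h from 7668 to 8701 (8 µM) and from 6679 to 7827 (200 µM), against 8033 to 10089 in vehicle wells. At 48 h it ran from 10727 to 11947 and from 9572 to 10583, against 9472 to 13216. Of 6 endothelial markers, a single call was made, a fall of Lyve1 with 200 µM at 48 h. The endothelial sums overlapped with vehicle in each treated comparison. Fewer cells of a type and less RNA per cell cannot be told apart in such cultures, and the part of other cell types in the results was not tested. As a check of exposure, 6 of 6 measured PPARα target genes (8 listed) rose in all 4 treated comparisons, Cyp4a1 by 3.82 (8 µM) and 3.86 (200 µM) at 24 h and by 3.21 and 3.16 at 48 h on the log2 scale.

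More of these P450 probe sets fell than rose with WY-14643. At 24 h, 3 members rose and 8 fell with 8 µM, 32.4% of the members, when 12.7% of all probe sets passed (5.77% up and 6.93% down). With 200 µM at 24 h, 5 rose and 8 fell (38.2% of the members), against 12.3% of all probe sets (5.62% up and 6.65% down). At 48 h, 5 rose and 13 fell with 8 µM (52.9%), against 19% of all (8.28% up and 10.7% down), and 7 rose and 10 fell with 200 µM (50%), against 17.8% of all (8.3% up and 9.51% down). The median log2 fold change of the members was -0.037 (8 µM) and 0.03 (200 µM) at 24 h, and -0.273 (8 µM) and -0.186 (200 µM) at 48 h, where the medians of all probe sets were -0.031, -0.025, -0.138 and -0.117. The members' medians at 48 h depended on the scaling. For 8 µM they were -0.082 with each array centred on its median, -0.167 with quantile normalization and -0.161 with array weights, and for 200 µM -0.018, -0.061 and, with the sign turned, 0.03. The members' typical standard error of 0.119 was below the median of 0.246 over all probe sets, and smaller changes could pass among them. Without array 4 of the 48 h vehicle group, the 48 h counts were 7 up and 13 down (8 µM) and 9 up and 12 down (200 µM). Of all probe sets, 9.06% rose and 10.6% fell (8 µM) and 9.16% rose and 9.89% fell (200 µM) in that fit. With each array centred on its own median, the 8 µM split at 48 h was 8 up and 7 down. At 24 h centring moved the median of all probe sets by 0.034 (8 µM), 0.016 (200 µM) and -0.017 (200 µM over 8 µM). Each test used a spread estimated over all groups, so array 4 of the 48 h vehicle group also entered the 24 h tests. Its part in 24 h calls lost with centred arrays was not tested.

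The comparisons at a time point share their vehicle wells, so the following counts are a description. Cyp2e1 and Cyp2j4 rose in all 4 treated comparisons, as did 3.41% of all probe sets. Cyp1a1, Cyp1a2, Cyp2c11, Cyp2d2, Cyp2f4, Cyp2t1 and 1 of the 2 probe sets of Cyp2d4 fell in all 4, which makes 7 of 34 members (20.6%) where 3.44% of all probe sets did so. Another 13 members (38.2%) passed in none of the 4, against 72.7% of all probe sets, and 1, Cyp2c6v1 (2.9%), passed in both directions, against 0.238% of all.

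**Figure D1:**
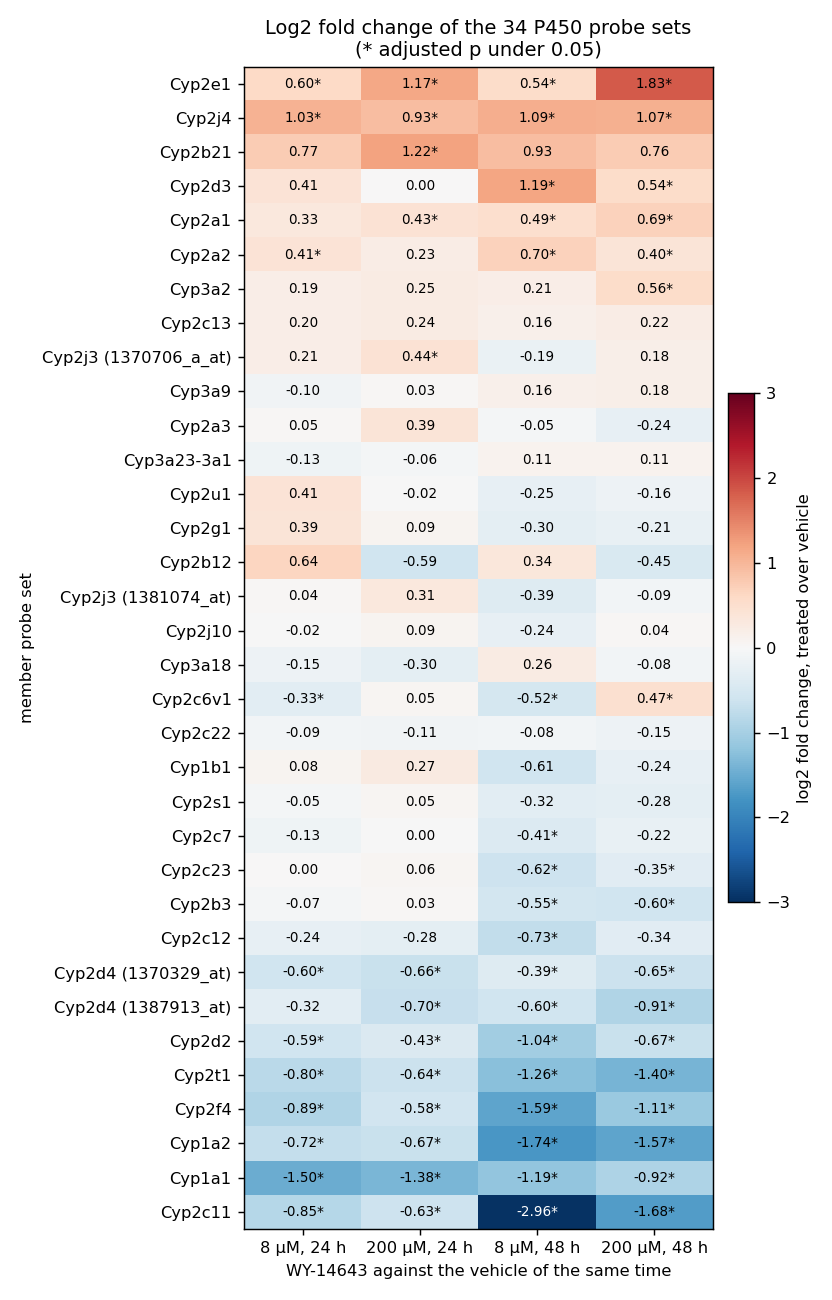
Log2 fold change of each of the 34 member probe sets (rows, ordered by their mean) in the 4 treated comparisons (columns), each against the vehicle wells of the same time (n = 5 each); an asterisk marks an adjusted p under 0.05. Cyp2j4 and Cyp2e1 carry an asterisk and a positive value in all 4 columns, and the lowest value is that of Cyp2c11 with 8 µM at 48 h (-2.96).

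Promoter sequences of 4 members that moved in all 4 treated comparisons are shown, a pair that fell (Cyp1a2, Cyp2c11) and the pair that rose (Cyp2e1, Cyp2j4). Each is the 250 bases before the start that RefSeq's promoter sequence uses, 5′ to 3′ on the gene's strand (build GRCr8). The first 3 windows end at the outer edge of the annotated gene, while the start used for Cyp2j4 lies further in, so that 177 bases of its window are inside the gene. Capitals mark exact matches on either strand to TATAAA (the TATA box), AGGTCA (the hexamer that nuclear receptors bind) or CCAAT (the CCAAT box).
Cyp1a2, chr8:66978150-66978399, minus strand: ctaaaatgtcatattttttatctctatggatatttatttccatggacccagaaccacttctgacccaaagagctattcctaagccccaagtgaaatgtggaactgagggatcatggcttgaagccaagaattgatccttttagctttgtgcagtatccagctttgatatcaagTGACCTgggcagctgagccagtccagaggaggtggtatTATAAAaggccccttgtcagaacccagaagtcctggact
Cyp2c11, chr1:246174966-246175215, plus strand: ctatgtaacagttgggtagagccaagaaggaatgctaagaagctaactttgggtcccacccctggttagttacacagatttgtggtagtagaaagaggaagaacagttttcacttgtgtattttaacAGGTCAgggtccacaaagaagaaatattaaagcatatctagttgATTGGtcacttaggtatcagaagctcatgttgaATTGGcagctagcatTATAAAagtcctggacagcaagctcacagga
Cyp2e1, chr1:205269717-205269966, plus strand: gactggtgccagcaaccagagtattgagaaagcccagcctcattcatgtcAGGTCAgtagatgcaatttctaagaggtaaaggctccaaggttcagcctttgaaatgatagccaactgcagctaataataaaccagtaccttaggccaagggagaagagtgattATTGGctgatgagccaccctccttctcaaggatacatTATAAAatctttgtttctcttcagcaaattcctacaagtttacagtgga
Cyp2j4, chr5:116323043-116323292, minus strand: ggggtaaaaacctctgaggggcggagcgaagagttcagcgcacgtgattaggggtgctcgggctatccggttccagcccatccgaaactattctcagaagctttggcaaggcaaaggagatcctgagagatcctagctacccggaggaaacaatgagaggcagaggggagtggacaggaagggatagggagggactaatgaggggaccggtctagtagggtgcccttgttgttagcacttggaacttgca
The TATA box begins 39 bases before the start in Cyp1a2, 31 in Cyp2c11 and 49 in Cyp2e1, and AGGTCA lies 77, 123 and 200 bases before it. The Cyp2j4 window holds no match to the motifs searched. The RefSeq table held a promoter for 29 of the 32 member genes, and 13 of these windows (44.8%) reached into the annotated gene, as did 30.7% of all. Cyp1a1, Cyp2a2 and Cyp2c6v1 had no promoter entry and were not searched. AGGTCA was found in 11 of these 29 (37.9%) and in 13.7% of 27457 promoters, and TATAAA in 10 (34.5%) and in 13.1%. CCAAT was found in 13 (44.8%) and in 34.3%. GCGTG, the core of the element that Ahr binds, was found in 3 (10.3%; Cyp1b1, Cyp2t1 and Cyp2u1) and in 27.2%. The windows of Cyp1b1 and Cyp2t1 lay with all 250 bases inside the annotated gene, and that of Cyp2u1 with 66. CAAAGTCCA, a site of Hnf4a, was found in 2, Cyp3a2 and Cyp3a23-3a1, and in 0.3%, and GTTAAT, part of an Hnf1 site, in 3 and in 6.5%. All windows had this length, both strands were searched, and a match is a description of the letters only.

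Both Cyp1a genes fell at each dose and time. Cyp1a1, which oxidises polycyclic aromatic hydrocarbons and is the best-known target of Ahr, gave signals at 24 h of 13194, 11469, 14341, 13180.4 and 15377 in 8 µM wells and 13991, 15558, 14298, 15046 and 14279.5 in 200 µM wells, against 35833, 41456, 37979.9, 37608 and 37323 in vehicle wells. Every treated well lay below every vehicle well, with log2 fold changes of -1.50 ± 0.09 (8 µM, adjusted p = 1.8e-14) and -1.38 ± 0.09 (200 µM, adjusted p = 2e-13), or 0.354 and 0.385 times the vehicle level. At 48 h its signals were 13527, 16546, 12569, 13730.3 and 18564 in 8 µM wells and 18142, 16116, 17229, 18538 and 19746 in 200 µM wells, against 36723, 35163, 34667, 26418 and 38229.8 in vehicle wells. The groups were again apart, with log2 fold changes of -1.19 ± 0.09 (8 µM, adjusted p = 3.5e-12) and -0.92 ± 0.09 (200 µM, adjusted p = 1.8e-09). Its fall at 48 h was not shown to differ from that at 24 h (adjusted p = 0.4 and 0.11).

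Cyp1a2, the constitutive liver enzyme that oxidises caffeine and aromatic amines, fell further at 48 h. At 24 h it gave 9059.6, 9007, 9981, 10543 and 12047 in 8 µM wells and 10109.6, 10001, 10604, 9936 and 11573 in 200 µM wells, against 16702, 17035, 16027, 16505 and 17004 in vehicle wells. All treated wells were below all vehicle wells, with log2 fold changes of -0.72 ± 0.08 (8 µM, adjusted p = 1.9e-08) and -0.67 ± 0.08 (200 µM, adjusted p = 1e-07). At 48 h it gave 2219, 2254, 2662, 2099 and 2451 in 8 µM wells and 2392, 3139, 2606, 2307 and 2696 in 200 µM wells, against 7856, 7509.8, 8078, 6874 and 8801 in vehicle wells. Here the treated wells were at 0.300 (8 µM) and 0.336 (200 µM) times the vehicle level, log2 fold changes of -1.74 ± 0.08 (adjusted p = 7.5e-18) and -1.57 ± 0.08 (adjusted p = 1.3e-16). The effect at 48 h minus that at 24 h was -1.01 ± 0.11 for 8 µM (adjusted p = 1.1e-06) and -0.90 ± 0.11 for 200 µM (adjusted p = 1.1e-05). Both of these differences missed the threshold with each array centred on its median (0.12 and 0.28).

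Cyp1b1, another Ahr target, which is mainly expressed outside the liver, passed in none of the 9 comparisons. Its signals were 346 to 470.4 (8 µM) and 311 to 749 (200 µM) at 48 h, against 285 to 2713 in vehicle wells, where array 4 gave the highest value. Of 6 measured genes from a list of 8 other Ahr targets, none rose and 1 fell at 24 h with either dose by limma (at an unadjusted p under 0.05, 1 was higher and 3 lower with 8 µM, and 0 higher and 1 lower with 200 µM), and 1 rose and 1 fell at 48 h with either dose. Among all probe sets, 5.62% to 8.3% rose and 6.65% to 10.7% fell per treated comparison. Ugdh, which makes UDP-glucuronic acid, fell at 24 h (-0.24 with 8 µM, adjusted p = 0.019, and -0.30 with 200 µM, adjusted p = 0.0024). Tiparp, of the poly-ADP-ribose polymerase family, rose at 48 h by 0.27 and 0.25. The quinone reductase Nqo1 passed in none of the 4, with values from -0.19 to -0.05, and Aldh3a1 and Nfe2l2 each passed in a single comparison, Aldh3a1 with 200 µM at 48 h (-1.90, adjusted p = 0.006) and Nfe2l2 with 8 µM at 48 h (-0.27, adjusted p = 0.0028).

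Of the 7 members of subfamily 2c, 2 fell with 8 µM at 24 h, 1 fell with 200 µM at 24 h, 5 fell with 8 µM at 48 h, and 2 fell and 1 rose with 200 µM at 48 h. Of all probe sets, 6.93%, 6.65%, 10.7% and 9.51% fell in that order, and 8.3% rose with 200 µM at 48 h. Among the 7, the steepest fall was that of Cyp2c11, the male-specific steroid hydroxylase of rat liver. At 48 h its signals were 1409.8, 1924, 2039.5, 2058 and 2495 in 8 µM wells and 3950.0, 3613, 4714, 5607 and 6541 in 200 µM wells, against 20228, 15940.4, 14201, 10320.3 and 17802 in vehicle wells. The 3 doses did not overlap: the 8 µM wells were lowest, the 200 µM wells lay between, and the vehicle wells were highest. The log2 fold changes were -2.96 ± 0.15 with 8 µM (adjusted p = 4.9e-17, 0.129 times vehicle) and -1.68 ± 0.15 with 200 µM (adjusted p = 9.3e-11, 0.312 times vehicle). Its signals at 24 h were 9983, 10815, 10540.0, 11717 and 11475 in 8 µM wells and 12766, 12014, 13023, 14389 and 11671 in 200 µM wells, against 17992, 17574, 22725, 17900.1 and 22825 in vehicle wells. These groups did not overlap with vehicle either, and the changes were smaller, -0.85 ± 0.15 (adjusted p = 5.6e-05) and -0.63 ± 0.15 (adjusted p = 0.0028; 0.11 with arrays centred on their medians). The effect at 48 h minus that at 24 h was -2.11 ± 0.21 for 8 µM (adjusted p = 1.2e-07) and -1.05 ± 0.21 for 200 µM (adjusted p = 0.0063; 0.45 with centred arrays).

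Cyp2c6v1, a constitutive 2C enzyme that phenobarbital raises in the rat, moved in opposite directions at the 2 doses at 48 h. Its signals at 48 h were 8828, 9087, 8919, 7154 and 9383 in 8 µM wells and 16838, 16229, 17238, 16467 and 19394 in 200 µM wells, against 12093, 12558, 12405, 10631 and 14684 in vehicle wells. All 8 µM wells lay below all vehicle wells and all 200 µM wells above them, with changes of -0.52 ± 0.08 (adjusted p = 3.3e-06; 0.19 with centred arrays) and 0.47 ± 0.08 (adjusted p = 2e-05). In 24 h cultures the signals were 17514, 17885, 16040.4, 19046 and 20631 in 8 µM wells, against 24209.8, 22068, 23761, 20258 and 23732 in vehicle wells, a log2 change of -0.33 ± 0.08 with overlapping groups (adjusted p = 0.0028; 0.38 with centred arrays). The 200 µM wells at 24 h, at 23044, 23291, 24421, 22410.3 and 24611, were not shown to differ from vehicle (0.05 ± 0.08, adjusted p = 0.83).

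Cyp2c23, an arachidonic acid epoxygenase best known from kidney, fell at 48 h. It gave 3273, 3810.3, 3686, 3145 and 3533 in 8 µM wells and 4291, 3723, 4900.2, 4420.2 and 3876 in 200 µM wells, against 5449.6, 5422, 5369.6, 5241 and 5387 in vehicle wells. Neither dose overlapped with vehicle, and the changes were -0.62 ± 0.09 (adjusted p = 8.7e-07) and -0.35 ± 0.09 (adjusted p = 0.0033; 0.51 with centred arrays). At 24 h its log2 fold changes were 0.00 and 0.06 and did not pass. Cyp2c7, a retinoic acid hydroxylase, and Cyp2c12, the female-specific counterpart of Cyp2c11, passed in 1 treated comparison each, 8 µM at 48 h, where they fell. Cyp2c7 gave 912, 1212, 1121, 883 and 1079 in 8 µM wells, against 1297, 1369, 1436, 1146 and 1686 in vehicle wells (-0.41 ± 0.12, adjusted p = 0.011). Cyp2c12 gave 293, 292, 192, 227 and 405 in 8 µM wells, against 638, 552, 508, 204 and 587 in vehicle wells (-0.73 ± 0.21, adjusted p = 0.0093). The groups overlapped in both genes. Cyp2c7 missed the threshold with quantile normalization (0.29) and with centred arrays (0.51), and Cyp2c12 with those (0.21 and 0.23) and in a fit of the compared groups alone (0.096). Without array 4 of the 48 h vehicle group, Cyp2c12 also passed with 200 µM at 48 h (0.0031). Cyp2c13, a male-specific steroid hydroxylase whose probe set carries the maker's mark for probes shared by several transcripts, passed in no treated comparison (0.20 and 0.24 at 24 h, 0.16 and 0.22 at 48 h). Cyp2c22 did not pass either, with values of -0.09, -0.11, -0.08 and -0.15 in that order; without array 4 of the 48 h vehicle group it passed at 48 h with 8 µM (0.045) and 200 µM (0.0042).

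Cyp2e1, which oxidises ethanol, acetone and other small molecules, rose at every dose and time. At 24 h it gave 13121, 14536, 14710.3, 16156 and 15769.6 in 8 µM wells and 21655, 22118, 22409, 21526 and 21746 in 200 µM wells, against 9168, 9345, 10080.2, 8965 and 11396 in vehicle wells. All treated wells were above all vehicle wells and all 200 µM wells above all 8 µM wells. The log2 fold changes were 0.60 ± 0.12 (8 µM, adjusted p = 0.00029) and 1.17 ± 0.12 (200 µM, adjusted p = 2.9e-09). In 48 h cultures the signals were 6394, 8504, 8207, 7842 and 11359.5 in 8 µM wells and 19071, 18173, 19803, 20422 and 25164 in 200 µM wells, against 5754, 6624, 5307, 4151 and 7211 in vehicle wells. The 8 µM wells overlapped with vehicle (0.54 ± 0.12, adjusted p = 0.00078), and the 200 µM wells, at 3.57 times the vehicle level, lay above every other well of that time (1.83 ± 0.12, adjusted p = 4.3e-14).

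Cyp2j4, an enzyme of arachidonic acid and retinoid oxidation in rat liver and intestine, rose at every dose and time. Its signals at 24 h were 14828, 14693, 15276, 15728 and 16069 in 8 µM wells and 14328, 14812, 13746, 15091 and 13241 in 200 µM wells, against 7753, 6925, 7275, 6369.7 and 9359 in vehicle wells. At 48 h it gave 15219, 15201, 15128, 17863 and 18754 in 8 µM wells and 16639, 14984, 14625, 15551 and 19548 in 200 µM wells, against 8084, 9588, 7099, 5891 and 8318 in vehicle wells. No treated well overlapped with vehicle, and the log2 fold changes were 1.03 and 0.93 at 24 h and 1.09 and 1.07 at 48 h, each with an SE of 0.10 (highest adjusted p = 1.1e-08). The difference between doses was -0.11 ± 0.10 at 24 h (adjusted p = 0.92) and -0.02 ± 0.10 at 48 h (adjusted p = 1). Cyp2j3, an arachidonic acid epoxygenase of heart and liver, had 2 probe sets, and 1 of them (1370706_a_at) rose with 200 µM at 24 h, giving 3568, 2946, 3645, 3239 and 3241 in 200 µM wells, against 2435, 2204, 2761, 2179 and 2714 in vehicle wells (0.44 ± 0.12, adjusted p = 0.015; 0.14 with centred arrays). These groups did not overlap. In the same comparison the other probe set (1381074_at) gave 0.31 ± 0.18 (adjusted p = 0.35). Cyp2j10 passed in none, with values from -0.24 to 0.09.

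**Figure D2:**
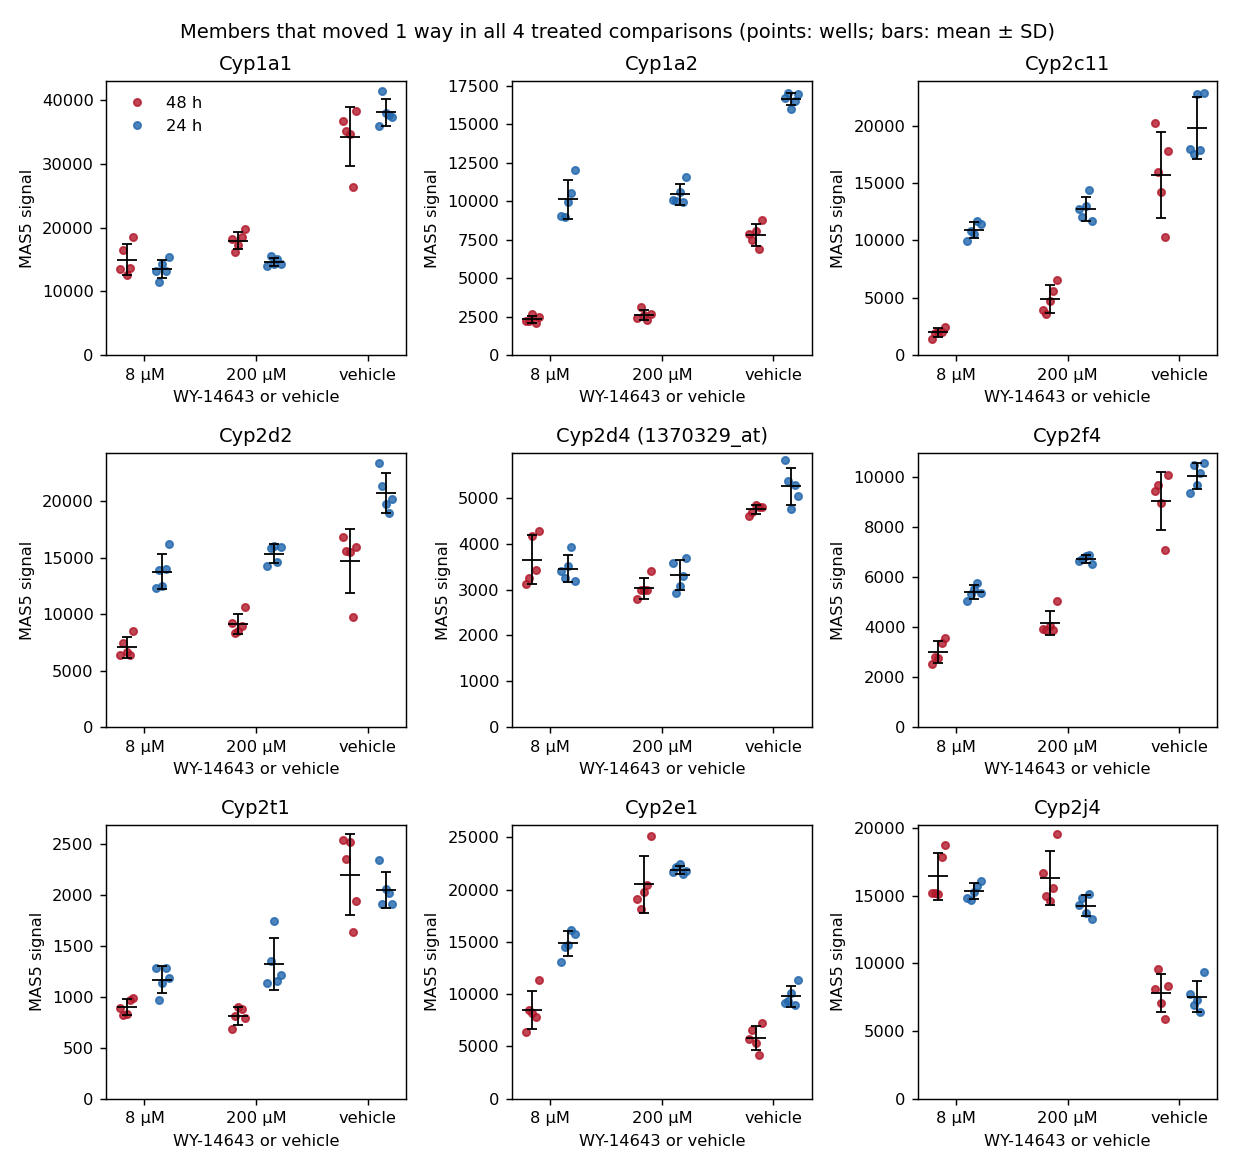
MAS5 signal (linear axis from 0) of the 9 probe sets that passed in 1 direction in all 4 treated comparisons, in 8 µM, 200 µM and vehicle wells, with 48 h wells in red to the left of 24 h wells in blue; points are wells and black bars the mean ± SD (n = 5). Cyp2e1 and Cyp2j4 are higher in treated wells, the other 7 are lower, and the 48 h Cyp2c11 wells are lowest at 8 µM.

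Subfamily 2d moved both ways. Cyp2d2, the main rat enzyme that hydroxylates debrisoquine, fell in all 4 treated comparisons. Its signals at 48 h were 6375, 7414, 6645, 6347 and 8544 in 8 µM wells and 9178, 8297, 8488, 8973 and 10616 in 200 µM wells, against 16848, 15630.1, 15516, 9761 and 15947 in vehicle wells. The 8 µM wells lay below all vehicle wells; a 200 µM well overlapped with vehicle array 4, the lowest of its group. The changes were -1.04 ± 0.11 (adjusted p = 2.3e-09) and -0.67 ± 0.11 (adjusted p = 1.1e-05). In 24 h cultures the signals were 12289, 13877, 12477, 13981 and 16208 in 8 µM wells and 14265, 15872, 16039, 14647 and 15943 in 200 µM wells, against 23425, 21356, 19770.3, 18918 and 20223 in vehicle wells. No well overlapped with vehicle, and the changes were -0.59 ± 0.11 (adjusted p = 9.1e-05) and -0.43 ± 0.11 (adjusted p = 0.0044). With centred arrays only the 8 µM fall at 48 h passed for this gene.

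Cyp2d3 rose at 48 h, more with 8 µM. It gave 12408, 13790.2, 12465, 13101 and 16921 in 8 µM wells and 9761, 8310.4, 7601, 7665 and 10471 in 200 µM wells, against 7534, 6364, 6115, 3569 and 7259 in vehicle wells. Both doses lay above vehicle, by 1.19 ± 0.14 (adjusted p = 7.8e-08) and 0.54 ± 0.14 (adjusted p = 0.0066). At 24 h its values were 0.41 ± 0.14 (adjusted p = 0.056) and 0.00 ± 0.14 (adjusted p = 1); the 8 µM value passed in 10 of the 40 alternatives, among them without array 4 of the 48 h vehicle group (0.0076). Cyp2d4, the main 2D enzyme of rat brain, fell by both of its probe sets. Probe set 1370329_at gave at 24 h 3404, 3251, 3515, 3926 and 3195 in 8 µM wells and 3588, 2932, 3079.6, 3295 and 3696 in 200 µM wells, against 5838, 5379.9, 4757, 5284 and 5037 in vehicle wells. In 48 h cultures the signals were 3127, 3248, 4172, 3438 and 4286 in 8 µM wells and 2789.7, 2984, 2985, 2986 and 3399 in 200 µM wells, against 4608, 4689, 4854, 4801 and 4810.1 in vehicle wells. No group overlapped with its vehicle, and the changes were -0.60, -0.66, -0.39 and -0.65 (SE 0.08, highest adjusted p = 0.00046, for 8 µM at 48 h, which became 0.37 with centred arrays).

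The other Cyp2d4 probe set (1387913_at) fell in 3 of the 4 comparisons. At 24 h it gave 577, 653, 1018, 736 and 495 in 200 µM wells, against 1118, 1231, 1049, 1103 and 1051 in vehicle wells, which did not overlap (-0.70 ± 0.17, adjusted p = 0.0037). With 8 µM at 24 h its value was -0.32 ± 0.17 (adjusted p = 0.29). At 48 h it gave 779, 793, 845, 525 and 884 in 8 µM wells and 611, 552, 663, 541 and 658 in 200 µM wells, against 1247, 1127, 799, 1840.4 and 971 in vehicle wells. The 200 µM wells were apart from vehicle (-0.91 ± 0.17, adjusted p = 0.00013), while the 8 µM wells overlapped (-0.60 ± 0.17, adjusted p = 0.01). That 8 µM call was lost without array 4 of the 48 h vehicle group (0.05), without 8 µM well 4 (0.053) and with centred arrays (0.083).

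Cyp2f4, a lung P450 that activates naphthalene, and Cyp2t1 fell in all 4 treated comparisons. At 48 h Cyp2f4 gave 2522, 2805, 2739.8, 3347 and 3546 in 8 µM wells and 3930.4, 3863, 4052, 3882 and 5016 in 200 µM wells, against 9411, 9646, 8934, 7058 and 10046 in vehicle wells. The groups were apart, with the 8 µM wells lowest, at 0.333 times vehicle (-1.59 ± 0.09, adjusted p = 3.6e-16) against 0.462 times with 200 µM (-1.11 ± 0.09, adjusted p = 3.7e-12). Its signals at 24 h were 5022, 5316, 5491, 5759 and 5335 in 8 µM wells and 6632, 6719, 6842, 6879.5 and 6488 in 200 µM wells, against 9341, 10469, 9644, 10127 and 10541 in vehicle wells. These wells did not overlap with vehicle, with changes of -0.89 ± 0.09 (adjusted p = 7.2e-10) and -0.58 ± 0.09 (adjusted p = 5.3e-06). Cyp2t1 gave at 48 h 896, 819, 831, 972 and 986 in 8 µM wells and 683, 818, 904, 884 and 791 in 200 µM wells, against 2541, 2357, 2526, 1635 and 1944 in vehicle wells. At 24 h Cyp2t1 gave 1287, 970.3, 1133, 1286 and 1182 in 8 µM wells and 1133, 1355, 1748, 1156 and 1219 in 200 µM wells, against 2342, 1914, 2058, 2018 and 1916 in vehicle wells. No treated well overlapped with its vehicle group, and its log2 fold changes were -0.80 ± 0.12 (8 µM) and -0.64 ± 0.12 (200 µM) at 24 h, and -1.26 ± 0.12 and -1.40 ± 0.12 at 48 h (highest adjusted p = 0.00017).

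The genes Cyp2a1 and Cyp2a2, which encode steroid hydroxylases of female and male rat liver, rose in 3 treated comparisons each. Cyp2a1 gave at 48 h 5701, 4549.7, 4819, 5621 and 7709 in 8 µM wells and 6172, 6158, 5805, 6005 and 8144 in 200 µM wells, against 4814, 3731, 3854, 3456 and 4077 in vehicle wells. The 200 µM wells lay above all vehicle wells (0.69 ± 0.14, adjusted p = 0.00027) and the 8 µM wells overlapped with them (0.49 ± 0.14, adjusted p = 0.0084). In 24 h cultures the signals were 5578, 3950.2, 4961, 5009 and 5299 in 200 µM wells, against 4452, 3366, 4286, 3831 and 2685 in vehicle wells, with overlap (0.43 ± 0.14, adjusted p = 0.035), and 8 µM did not pass (0.33 ± 0.14, adjusted p = 0.13). The 200 µM call at 24 h was lost with centred arrays (0.2), with no variance trend (0.075), and without well 1, 3, 4 or 5 of the 200 µM group or well 2 or 5 of the vehicle group (up to 0.16).

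Cyp2a2 gave at 48 h 8392, 9389, 9227, 9055 and 11396 in 8 µM wells and 7739, 6895, 6889.8, 7241 and 9756 in 200 µM wells, against 7076, 5495, 5398, 5136 and 6074 in vehicle wells. Here the 8 µM wells were all above vehicle (0.70 ± 0.10, adjusted p = 6.6e-07) and the 200 µM wells overlapped (0.40 ± 0.10, adjusted p = 0.0024). At 24 h it gave 8003, 8576, 8816, 9721 and 7703 in 8 µM wells, against 6365, 5569, 7485, 6109.6 and 6675 in vehicle wells, apart from each other (0.41 ± 0.10, adjusted p = 0.0021; 0.098 with centred arrays), and 200 µM did not pass (0.23 ± 0.10, adjusted p = 0.13). Cyp2a3, an enzyme of nasal and lung epithelium that exceeded the filter level on 13 of 30 arrays, passed in no comparison.

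These genes lie in a single cluster of 18 protein-coding genes from Cyp2s1 to Cyp2t1 in the RefSeq annotation (GRCr8), 10 of which are members. Cyp2b1 and Cyp2b2 lie in the cluster too, and their shared probe set, which is no member, rose in all 4 treated comparisons (see Other observations). In the cluster's gene order Cyp2a1 and Cyp2a2, which rose at 48 h, are directly followed by Cyp2f4 and Cyp2t1, which fell. Of the other members there, Cyp2b3, a constitutive 2B gene of liver, fell at 48 h, with 1555, 1634, 1713, 1231 and 1660.5 in 8 µM wells and 1556, 1575, 1734, 1186 and 1475 in 200 µM wells, against 2214, 2342, 2282, 1816 and 2789 in vehicle wells. The treated wells were below all vehicle wells (-0.55 ± 0.10, adjusted p = 1e-04, and -0.60 ± 0.10, adjusted p = 3e-05; 0.19 and 0.1 with centred arrays), and at 24 h it did not pass (-0.07 and 0.03). Cyp2b21, an oesophageal 2B gene, gave low signals, 264, 280.0, 265, 256 and 251 in 200 µM wells, against 23.9, 169.8, 113, 127 and 168 in vehicle wells at 24 h. These groups did not overlap (1.22 ± 0.40, adjusted p = 0.042), and the call was lost in 9 of 40 alternatives, among them without vehicle well 1 (0.21), 3 (0.062) or 4 (0.052), without any single 200 µM well (0.065 to 0.078) and with a pseudocount of 1 (0.053). Cyp2b21 exceeded the filter level on 5 arrays. Cyp2s1, Cyp2g1 and Cyp2b12, enzymes of epithelia, olfactory mucosa and sebaceous gland, passed in none of the 9 comparisons, nor did Cyp2u1, a fatty acid hydroxylase outside the cluster.

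**Figure D3:**
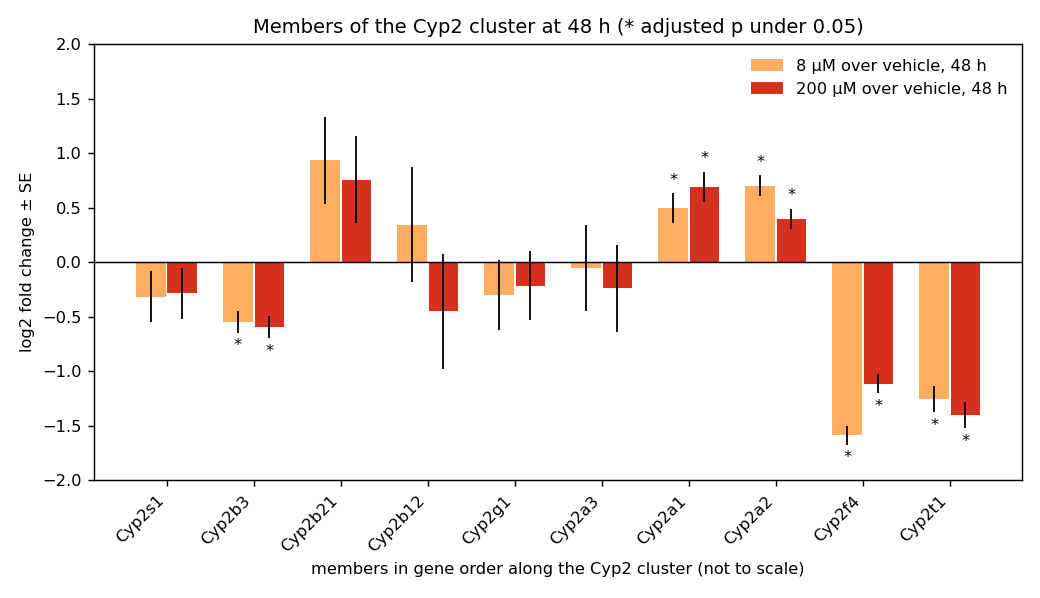
Log2 fold change ± SE at 48 h (8 µM in orange, 200 µM in red, each over vehicle, n = 5 wells each) of the 10 members in gene order along the cluster, with asterisks for an adjusted p under 0.05 and distances not to scale. Cyp2a1 and Cyp2a2 have positive bars with asterisks, and their neighbours Cyp2f4 and Cyp2t1 have bars of -1.11 to -1.59.

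The 4 members of subfamily 3a, which oxidise a wide range of drugs and steroids, passed in 1 of 16 treated comparisons, where 12.3% to 19% of all probe sets passed in each comparison. Cyp3a2, the male-specific form, rose with 200 µM at 48 h, with 2535, 2704, 2729.8, 2340.4 and 2990.0 in 200 µM wells, against 1384, 1516, 1904, 2462 and 1885 in vehicle wells. The groups overlapped (0.56 ± 0.13, adjusted p = 0.0015), and with 8 µM the value was 0.21 ± 0.13 (adjusted p = 0.3). Cyp3a23-3a1, the classical gene induced through the pregnane X receptor, averaged 68119 ± 2554 (8 µM) and 68304 ± 3469.7 (200 µM) at 48 h, against 63777 ± 9118 in vehicle wells (SD, n = 5 each). It did not pass (-0.13 and -0.06 at 24 h, 0.11 and 0.11 at 48 h), though it did with 200 µM at 48 h after quantile normalization (2.8e-05). Its mean signal was at percentile 99.9 of all probe sets, and whether so high a signal could rise further was not tested. Cyp3a9 did not pass (-0.10, 0.03, 0.16 and 0.18), and did at 48 h without array 4 of the vehicle group (0.022 with 8 µM and 0.016 with 200 µM). Cyp3a18 did not pass (-0.15, -0.30, 0.26 and -0.08), though its 200 µM wells at 24 h, 4094, 4265, 4359.5, 4460.4 and 4578, lay below the vehicle wells, 5516, 4971, 5468, 4829 and 6040.5 (adjusted p = 0.089; 0.018 without array 4 of the 48 h vehicle group).

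Between the doses, 2 members were higher and none lower with 200 µM than with 8 µM at 24 h by limma (5.9% of members; 1.17% of all probe sets passed, 0.522% up and 0.651% down); at an unadjusted p under 0.05 there were 3 and 4. At 48 h, 4 were higher and 1 lower (14.7%), against 1.79% of all (0.812% up and 0.983% down). Cyp2e1 was higher with 200 µM at both times, by 0.56 ± 0.12 at 24 h (adjusted p = 0.0071; 0.6 with centred arrays) and 1.29 ± 0.12 at 48 h (adjusted p = 8.8e-09). Cyp2c6v1 was too, by 0.37 ± 0.08 (adjusted p = 0.0064; 0.79 with centred arrays) and 0.99 ± 0.08 (adjusted p = 4e-10), with all 200 µM wells above all 8 µM wells at each time. Over the 40 alternatives, centring among them, the 24 h difference of Cyp2c6v1 ran from 0.33 to 0.42. In Cyp2c11 and Cyp2f4 the same sign meant a smaller fall with 200 µM at 48 h, by 1.28 ± 0.15 (adjusted p = 7.6e-07) and 0.47 ± 0.09 (adjusted p = 0.00097; 0.51 with centred arrays). Cyp2d3 was lower with 200 µM at 48 h (-0.65 ± 0.14, adjusted p = 0.0099; 0.42 with centred arrays and 0.061 in a fit of the compared groups alone). Without array 4 of the 48 h vehicle group, which enters the shared estimate of the spread, the counts were 3 and 1 at 24 h and 5 and 2 at 48 h. The shares of all probe sets in that fit were 1.09% and 1.3% at 24 h and 1.65% and 1.89% at 48 h.

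**Figure D4:**
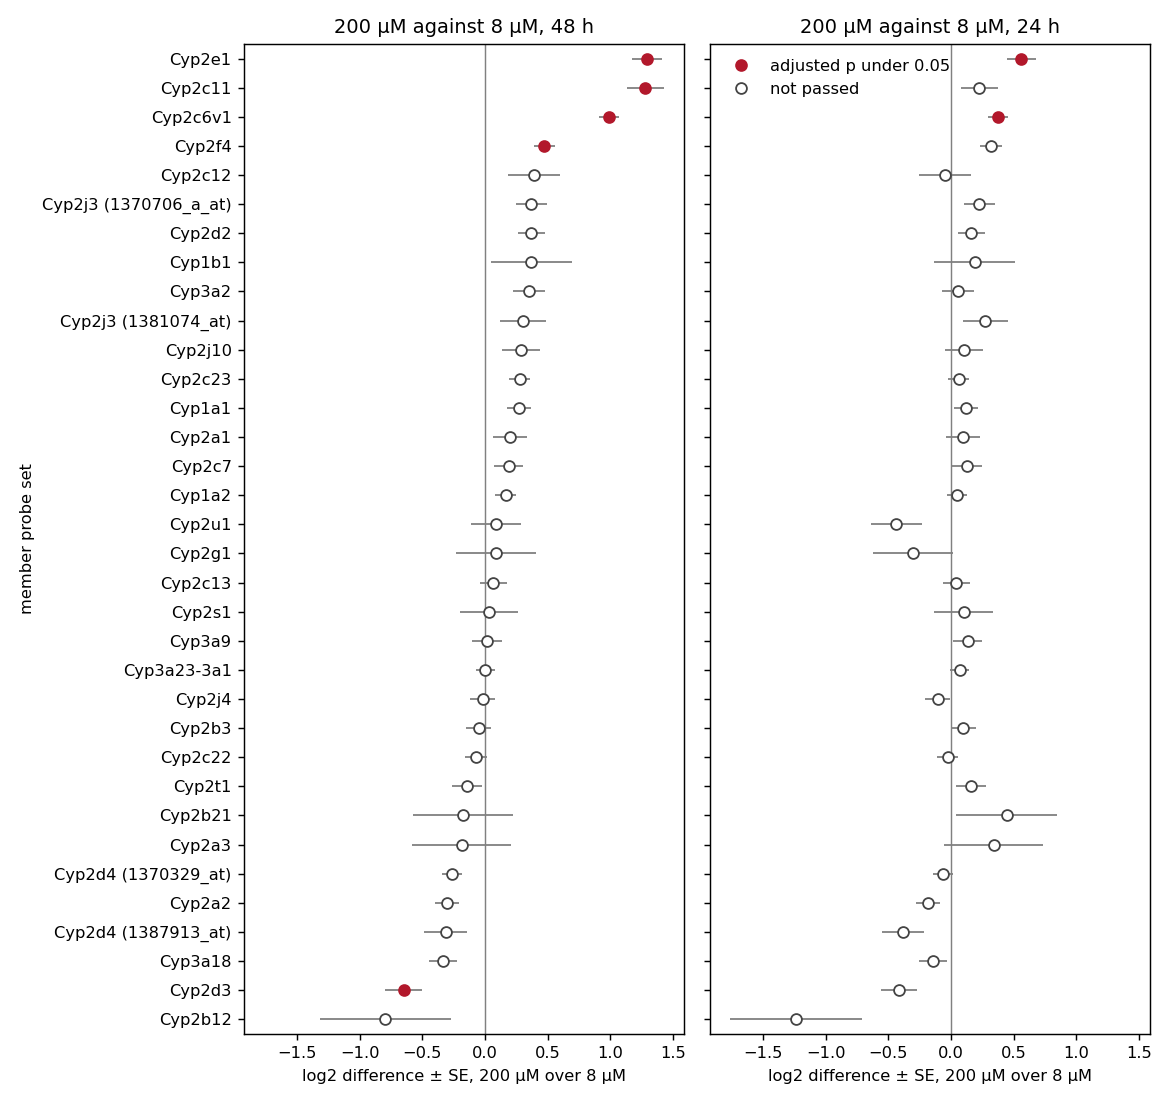
Log2 difference ± SE of 200 µM over 8 µM wells for each member at 48 h (left) and 24 h (right), n = 5 wells each; filled red points have an adjusted p under 0.05 and both panels keep the order of the 48 h values. At 48 h Cyp2e1 (1.29), Cyp2c11 (1.28), Cyp2c6v1 (0.99) and Cyp2f4 (0.47) are filled to the right of 0 and Cyp2d3 (-0.65) to the left.

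In vehicle wells, 14 members were lower at 48 h than at 24 h and none higher by limma (41.2% of members; 4.1% of all probe sets passed, 2.03% up and 2.07% down); at an unadjusted p under 0.05, 1 was higher and 16 lower. Without array 4 of the 48 h vehicle group the counts were 12 lower and none higher, where 2.1% of all probe sets were lower and 2.63% higher. Cyp2c13 fell furthest among the 34, with 2149.5, 2708, 2720.2, 3378 and 2827 at 48 h, against 11775, 13576, 12218, 12544 and 14096 at 24 h. No wells overlapped, and the 48 h level was 0.214 times that at 24 h (-2.22 ± 0.11, adjusted p = 2.1e-15). Cyp3a2 gave 1384, 1516, 1904, 2462 and 1885 at 48 h, against 8511, 7443, 7175, 7086 and 9227 at 24 h (-2.12 ± 0.13, adjusted p = 2.2e-13). Cyp2c12 gave 638, 552, 508, 204 and 587 at 48 h, against 1828, 1829, 1669.6, 1376 and 1867 at 24 h (-1.84 ± 0.21, adjusted p = 2.4e-07). Cyp2c7 gave 1297, 1369, 1436, 1146 and 1686 at 48 h, against 4847, 4556, 3511, 4132 and 5027 at 24 h (-1.66 ± 0.12, adjusted p = 8.5e-12). In these 3 genes too, all 48 h wells lay below all 24 h wells.

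Cyp1a2 came next (-1.09 ± 0.08, adjusted p = 2.9e-11). The other members that fell in vehicle wells were Cyp2c6v1 (-0.87), Cyp3a9 (-0.85), Cyp2e1 (-0.77), Cyp3a18 (-0.75), Cyp2b3 (-0.60), Cyp2c23 (-0.58), Cyp2d2 (-0.51), Cyp2d3 (-0.50) and Cyp2c22 (-0.29). Cyp2d3 (adjusted p = 0.042) and Cyp2c22 (adjusted p = 0.046) lost their calls in several alternatives, among them the fit of the compared groups alone (0.27 and 0.46), as did Cyp2d2 in that fit (0.082). Cyp1a1, Cyp2c11 and Cyp2j4 did not pass, at -0.16 ± 0.09, -0.36 ± 0.15 and 0.04 ± 0.10. The summed Kupffer cell markers were also lower at 48 h, 13716 to 17727 against 21216 to 23993, with 3 of 7 lower by the test, and their part in these values was not tested.

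**Figure D5:**
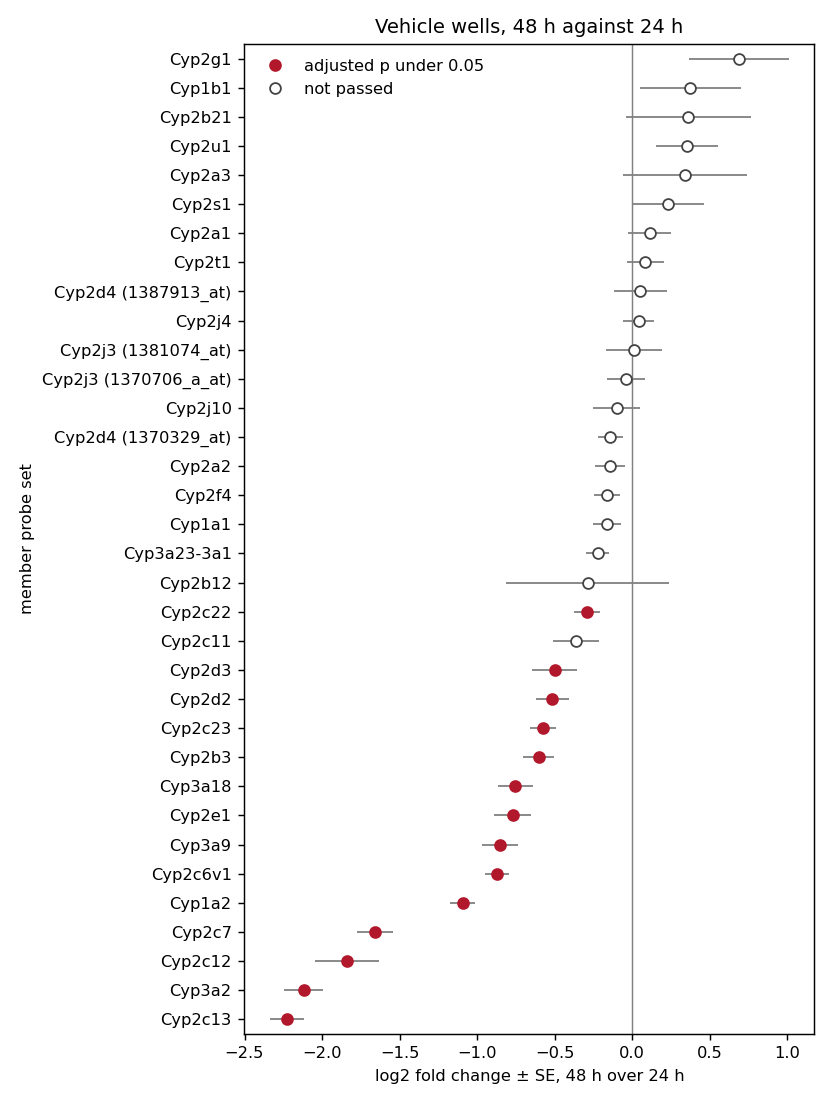
Log2 fold change ± SE of vehicle wells at 48 h over 24 h for each member (n = 5 wells each), ordered by value; filled red points have an adjusted p under 0.05. All 14 filled points lie left of 0, from Cyp2c22 (-0.29) to Cyp2c13 (-2.22).

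The treatment effect differed between the times in few members. For 8 µM, the effect at 48 h minus that at 24 h was negative in 4 members and positive in none by limma (11.8% of members; 1.03% of all probe sets passed, 0.561% up and 0.474% down), with 9 negative and 5 positive at an unadjusted p under 0.05. For 200 µM it was negative in 5 and positive in 1 (17.6%), against 0.863% of all (0.451% up and 0.412% down). Cyp1a2 and Cyp2c11 passed at both doses, as did Cyp2f4 (-0.69 ± 0.12, adjusted p = 0.0011, and -0.54 ± 0.12, adjusted p = 0.02). Cyp2c23 passed for 8 µM (-0.63 ± 0.12, adjusted p = 0.0038). Cyp2t1 (-0.76 ± 0.17, adjusted p = 0.018) and Cyp2b3 (-0.63 ± 0.14, adjusted p = 0.023) passed for 200 µM, and so did Cyp2e1, the only positive value (0.67 ± 0.17, adjusted p = 0.043). With centred arrays the only one of these 10 calls that stayed was that of Cyp2c11 for 8 µM. Cyp2b3 also lost its call without 200 µM well 4 at 48 h (0.053) or well 5 at 24 h (0.052), and Cyp2e1 lost its call in 24 of 40 alternatives. Without array 4 of the 48 h vehicle group the counts were 6 negative and none positive for 8 µM, and 5 and none for 200 µM. Of all probe sets, 0.957% were negative and 0.925% positive for 8 µM, and 0.905% and 0.725% for 200 µM.

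The receptors and transcription factors that govern P450 genes were measured for 22 of 24 listed genes. Of these 22, 5 exceeded a signal of 281 on fewer than 5 arrays. With 8 µM, 4 rose and 3 fell at 24 h and 5 rose and 4 fell at 48 h. With 200 µM, 2 rose and 2 fell at 24 h and 5 rose and 4 fell at 48 h. Of all probe sets, 5.62% to 8.3% rose and 6.65% to 10.7% fell in a treated comparison. Rxrg, a partner of many nuclear receptors, rose in all 4 comparisons (1.48 with 8 µM and 1.15 with 200 µM at 24 h, 1.46 and 1.22 at 48 h). Nr3c1, the glucocorticoid receptor, fell in all 4 (-0.54 and -0.47 at 24 h, -0.50 and -0.50 at 48 h), as did Foxa2, a liver transcription factor (-0.54 and -0.56 at 24 h, -0.49 and -0.63 at 48 h). Nr1i2, the pregnane X receptor, rose with 8 µM at 24 h (0.20, adjusted p = 0.024) and with both doses at 48 h (0.49 and 0.41). Ahr, Arnt, Ppara and Rxra passed in none of the 4, and the last 3 exceeded a signal of 281 on fewer than 5 arrays. For Ahr the values were -0.18 and 0.02 at 24 h and -0.65 and -0.06 at 48 h.

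Among the electron donors of P450 and the enzymes that make or break down haem, 17 of 19 listed genes were measured. With 8 µM, 2 rose and 2 fell at 24 h and 7 rose and 1 fell at 48 h. With 200 µM, 3 rose and 3 fell at 24 h, and at 48 h 6 rose and none fell (limma; 9 and 1 at an unadjusted p under 0.05). The shares of all probe sets were 5.62% to 8.3% up and 6.65% to 10.7% down per treated comparison. Por, the reductase that all these P450 enzymes depend on, did not pass (-0.13 and 0.06 at 24 h, 0.06 and 0.30 at 48 h). Pgrmc2, a haem-binding membrane protein, rose in all 4 (1.37 and 1.36 at 24 h, 1.48 at both doses at 48 h). Alas1, the rate-limiting enzyme of haem synthesis in liver, did not pass at 24 h (-0.24 and 0.23) and rose at 48 h (0.54, adjusted p = 6.6e-06, and 0.74, adjusted p = 2.9e-08). Alad, the next enzyme, rose in all 4 (0.60 and 0.29 at 24 h, 0.43 and 0.28 at 48 h), and Cpox, a later step, fell at 24 h (-0.52 and -0.37) and did not pass at 48 h (-0.10 and 0.03).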

How the data were processed

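Gene expression was measured on 30 Affymetrix arrays, 6 groups of 5 wells. The deposited files hold probe set signal intensity on a linear scale, made by the authors with MAS5, per the submitters' processing notes. On all 30 arrays the mean trimmed by 2% at each end lay between 1500.451 and 1500.699. The genome build was not given in the sources used here. The number of arrays limits the precision.

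Symbols came from the platform annotation (2016), where 20826 of 31042 probe sets have 1 symbol, 436 several and 9780 none. All 32 member genes matched RefSeq by gene ID. From the intensities, log2(signal + 16) was computed and fitted with limma 3.58.1 (R 4.3.3; lmFit, contrasts.fit, eBayes with a variance trend) over all 31042 probe sets, with 1 mean per group, 9 contrasts, two-sided tests and Benjamini-Hochberg adjustment at 0.05. The fit was tested on simulated data. Exact permutation tests used 252 splits (scipy 1.17.1).

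The members, the gene lists and the tests were chosen with earlier results of these data known. Members best known for induction or sex dependence were named whatever their values, with each well's value where they passed and a summary elsewhere. Cyp2b1, Cyp2b2, Cyp2d1 and Cyp3a62 had no probe set of their own. Members past a log2 fold change of 1 with a passed test, and the up to 5 largest rises and falls in the other contrasts, were named too, as were the up to 4 listed genes with the largest moderated statistic over the treated contrasts; Nqo1, Por, Ahr, Arnt, Ppara, Rxra, Cyp4a1 and the markers were named in addition, after their values were seen. Lists used 1 probe set per gene, that with the highest mean. Other pseudocounts, scalings, filters and fits, and 30 fits without 1 array each, were tried as alternatives.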

Additional observations from a re-analysis of the deposited data

Results flagged for a closer look

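In 204 sets of 5 wells (34 probe sets in 6 groups), 21 held a well far from the rest of its group by Dixon's criterion, where chance gives about 1 set in 20. Array 4 of the 48 h vehicle group accounted for 6, with signals of 2713 (others 285 to 703) for Cyp1b1, 1661 (others 123 to 269) for Cyp2a3, 200.0 (others 9.33 to 51.8) for Cyp2b12, 9761 (others 15516 to 16848) for Cyp2d2, 1655 (others 394 to 581) for Cyp2s1 and 965 (others 529.9 to 635) for Cyp3a9. With 8 µM at 24 h, the far wells were well 4 of Cyp2j3 (1381074_at) at 756 (others 543 to 598) and well 5 of Cyp3a2 at 11504 (others 7960.0 to 8790.4). With 200 µM at 24 h, the far wells were well 4 of Cyp2j3 (1381074_at) at 912 (others 664 to 728) and well 3 of Cyp3a2 at 10824 (others 8741 to 9343). With 8 µM at 48 h, the far wells were well 3 of Cyp1b1 at 346 (others 440.4 to 470.4), well 4 of Cyp2b12 at 133 (others 34.9 to 38.6), well 4 of Cyp2c6v1 at 7154 (others 8828 to 9383), well 5 of Cyp2j3 (1370706_a_at) at 2838 (others 1789 to 2021) and well 5 of Cyp3a18 at 4878 (others 3462 to 3655). With 200 µM at 48 h, the far wells were well 5 of Cyp2a1 at 8144 (others 5805 to 6172), well 2 of Cyp2a3 at 353 (others 218 to 252), well 5 of Cyp2f4 at 5016 (others 3863 to 4052), well 1 of Cyp2j10 at 1678 (others 1069.5 to 1202), well 5 of Cyp2j3 (1370706_a_at) at 4107 (others 2294 to 2636) and well 5 of Cyp3a23-3a1 at 62213 (others 68963 to 70796). Well 5 of the 200 µM group at 48 h recurs in several of these. The 34 probe sets' summed signal there was 262273 (others 236889 to 245576). At 48 h well 5 was highest with 8 µM (244208, others 210880 to 228712) and in vehicle (290774, others 208283 to 276102) too. At 24 h it was highest with vehicle (361422.5, others 319300 to 359227) and 8 µM (321480, others 275617 to 302300). With 200 µM it was not (316666, others 306438 to 327608). The fit reported had no term for runs of arrays, and a block for them was an alternative. 

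The effect at 48 h minus that at 24 h, on the log2 scale, passed the limma test of the difference in 10 member comparisons. For 8 µM these were Cyp1a2 at -1.01 (adjusted p = 1.1e-06), Cyp2c11 at -2.11 (adjusted p = 1.2e-07), Cyp2c23 at -0.63 (adjusted p = 0.0038) and Cyp2f4 at -0.69 (adjusted p = 0.0011). For 200 µM they were Cyp1a2 at -0.90 (adjusted p = 1.1e-05), Cyp2b3 at -0.63 (adjusted p = 0.023), Cyp2c11 at -1.05 (adjusted p = 0.0063), Cyp2e1 at 0.67 (adjusted p = 0.043), Cyp2f4 at -0.54 (adjusted p = 0.02) and Cyp2t1 at -0.76 (adjusted p = 0.018). Among the listed genes of haem metabolism, Alas1 gave 0.79 (adjusted p = 0.00013) for 8 µM and 0.50 (adjusted p = 0.029) for 200 µM, Cpox gave 0.42 (adjusted p = 0.0039) and 0.40 (adjusted p = 0.0092), and Hmox1, which breaks down haem, gave 0.68 (adjusted p = 0.0022) and 0.65 (adjusted p = 0.0052).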

How the results depend on the processing

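Of 136 treated comparisons of members, 59 passed, 42 of them in every alternative that held the probe set, 40 at most. In at least 1 alternative, 17 calls were lost, and 17 comparisons passed although not in the fit reported. No call changed sign. Centring each array on its median, which by construction lowers array 4 of the 48 h vehicle group, gave 3 up for 200 µM at 24 h, 8 up and 7 down for 8 µM at 48 h, 0 up between the doses at 24 h and 0 down at 48 h, 1 down in the time difference of 8 µM, and 0 up and 0 down in that of 200 µM. It moved the median of all probe sets at 48 h by 0.192 (8 µM) and 0.168 (200 µM), and in vehicle over time by -0.146. Quantile normalization moved it by 0.121 and 0.109 and array weights by 0.106 and 0.102. Between the doses at 48 h, quantile normalization gave 7 up, array weights 7 up and 3 down, the run block 2 down, and the fit of the compared groups 0 down; at 24 h array weights gave 1 down. In the time difference of 8 µM, quantile normalization, the signal filter, 1 probe set per gene and the run block each gave 1 up. In that of 200 µM they each gave 2 up, quantile normalization 3 down, and no variance trend 0 up and 3 down.

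Leaving out each array gave, up and down, 3 to 4 and 8 (8 µM, 24 h), 3 to 5 and 8 to 9 (200 µM, 24 h), 5 to 7 and 12 to 15 (8 µM, 48 h), 7 to 9 and 10 to 12 (200 µM, 48 h), 2 to 3 and 0 to 1 (doses, 24 h), 4 to 7 and 1 to 2 (doses, 48 h), 0 and 12 to 15 (vehicle over time), 0 to 1 and 4 to 6 (time difference, 8 µM) and 0 to 2 and 4 to 5 (200 µM). Counts moved by over 1.5 times as follows. The 3 up for 200 µM at 24 h came without array 1, 3, 4 or 5 of that group. Between the doses at 48 h, 7 up came without 8 µM array 5, and 2 down without 8 µM array 1, 200 µM array 5 or vehicle array 4, whose removal also gave 1 down at 24 h. The time difference of 8 µM gave 1 up without 24 h vehicle array 4, 48 h vehicle array 1 or 5, or 24 h 8 µM array 5. That of 200 µM gave 2 up without 24 h vehicle array 4 or 48 h vehicle array 5, and 0 up in 21 of the 30 removals. No paired analysis was possible because the labels carry no replicate numbers. The block for each run of 6 consecutive array numbers, which no label names as a batch, stands in place of a pairing. The alternatives for single members between doses, over time and in the time differences were added after seeing the data.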

Other observations

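Another 3 probe sets carry 2 symbols of family 2 each and were not members. That of Cyp2b1 and Cyp2b2, the near-identical phenobarbital-inducible 2B enzymes, rose in all 4 treated comparisons. At 24 h it gave 10817, 10164, 10617, 10999 and 13045 in 8 µM wells and 15471, 16710.4, 17407, 16879 and 18301 in 200 µM wells, against 3125, 2515, 3349, 2297 and 2974 in vehicle wells. At 48 h it gave 10762, 13144, 11296, 10478 and 14727 in 8 µM wells and 15057, 15183, 15186, 13515 and 20037 in 200 µM wells, against 3091, 2493, 2104, 2975 and 3431 in vehicle wells. No treated well overlapped with vehicle, and the log2 fold changes were 1.97 ± 0.12 and 2.58 ± 0.12 at 24 h and 2.10 ± 0.12 and 2.49 ± 0.12 at 48 h (highest adjusted p = 5.6e-15). The signal with 200 µM was above that with 8 µM at 24 h by 0.61 ± 0.12 (adjusted p = 0.0025) and at 48 h the difference was 0.39 ± 0.12 (adjusted p = 0.094). The probe set does not tell the 2 genes apart.

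The probe set of Cyp2a1 and Cyp2a2 rose with 8 µM at 24 h (0.32 ± 0.10, adjusted p = 0.028) and with both doses at 48 h (0.46 ± 0.10 and 0.52 ± 0.10), and gave 0.28 ± 0.10 with 200 µM at 24 h (adjusted p = 0.057). That of Cyp2d1 and Cyp2d5 passed in no treated comparison (-0.24 and -0.25 at 24 h, -0.08 and -0.04 at 48 h) and was lower at 48 h than at 24 h in vehicle wells (-0.41 ± 0.09, adjusted p = 0.0042).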
